A study of Mus musculus with 4 samples.

Results

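The collagens, laminins and other basement membrane genes were taken from the count files by symbol: every collagen chain gene named Col, digits, a, digits, every laminin chain gene, the genes Nid1, Nid2, Hspg2, Agrn, Sparc and Fn1, and the collagen maturation genes Serpinh1, P4ha1, P4ha2 and Plod1. There were 65 such genes among 23366 gene symbols. They comprised 24 genes of basement membranes, 11 fibrillar collagens, 24 other collagens, 2 matrix glycoproteins and 4 collagen maturation genes. Of the 65, 44 had enough reads to be tested and 21 did not, 4 of these with no read in any library.

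Polyadenylated RNA was sequenced from R1 mouse embryonic stem cells, a line of 129X1 x 129S1 origin kept on gelatin with serum, serum replacement and LIF, the cytokine that sustains self-renewal. The control group, 2 libraries, carried a non-targeting hairpin, and the knockdown group, 2 libraries, carried a hairpin against the long noncoding RNA Cyrano, listed in the files as 1700020I14Rik. Both hairpins were transfected in the vector pSicoR-Ef1a-mCh-Puro, with enrichment of transfected cells by puromycin or flow cytometry. The labels do not say which way, or which of the RNA kits, served which library. The series is about Cyrano, microRNA activity and self-renewal, and the comparison here asked whether matrix transcripts differed once Cyrano was lowered.

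Gene counts summed to between 16854403 and 22321102 per library. Cyrano had 24.8 and 15.1 CPM (counts scaled to library size, with a factor for composition) in the controls and 3.99 and 3.16 CPM in the knockdown libraries. In edgeR's quasi-likelihood test this was -2.48 ± 0.30 on the log2 scale (SE, adjusted p = 0.0070), in the direction the labels give. Embryonic stem cell markers were present in every library, with 9 of 9 tested and a summed level of 4713 and 5011 CPM in the controls and 4681 and 4553 CPM after knockdown. On the log2 scale 5 of these 9 were above 0 and 4 below, with a median of 0.0029. Nanog had 216 and 228 CPM in the controls and 129 and 133 CPM after knockdown (-0.76 ± 0.14 on the log2 scale, edgeR adjusted p = 0.070). DESeq2 called Nanog alone of the 9, where it called 1.34% of all genes to which it gave an adjusted p. Dppa5a was higher, at 0.40 ± 0.16 (edgeR adjusted p = 0.35). Fibroblast markers, which would mark feeder cells, summed to 41.8 to 52.3 CPM in the controls and 38.6 to 64.7 CPM after knockdown. Of those 12 markers, Postn, Lum and Dcn had no read in any library and 6 were tested. Thy1 was the highest, with 38.0 and 21.6 CPM in the controls and 48.0 and 20.4 CPM after knockdown. On the log2 scale 3 of the 6 were above 0 and 3 below, with Twist1 at 0.93 ± 0.38 and Tagln at -1.11 ± 0.49. A count of 0 allows up to 3 reads, or 0.134 to 0.183 CPM depending on the library, from counting error only.

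Basement membranes are thin sheets of matrix laid down under epithelia and around the early embryo. Laminins, trimers of an α, a β and a γ chain, assemble first on the cell surface, and a network of collagen IV is then joined to them by nidogens and by the heparan sulfate proteoglycans perlecan (Hspg2) and agrin (Agrn). Fibrillar collagens instead form the tensile fibres of connective tissue and are typical of mesenchymal cells. Inside the cell, collagen chains are hydroxylated by prolyl and lysyl hydroxylases and escorted by the chaperone HSP47, the product of Serpinh1. In the mouse embryo the primitive endoderm and its parietal derivative are strong producers of laminin and collagen IV.

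The starts of the 2 main collagen IV genes are shown first, because their levels had the same order across the 4 libraries and because they are read in opposite directions from neighbouring starts. Capitals mark the 22 bases from one RefSeq start to the other on GRCm38.p6, with 4 bases on each side, at chr8:11312801-11312830. Col4a1 is on the minus strand and Col4a2 on the plus strand, and the capitals begin at each gene's own start.
Col4a1: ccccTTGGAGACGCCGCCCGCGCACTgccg
Col4a2: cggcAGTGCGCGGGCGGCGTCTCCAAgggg
In this table the transcripts thus overlap by those 22 bases at their 5′ ends. Whether strand was used in the counting is not known here, and without strand a read lying within that stretch cannot be assigned to either gene. Windows from 250 bases before to 50 after the start were searched on both strands. For these 2 genes the bases before each start lie on the transcribed side of the other gene's start. The letters CCAAT occur in the windows of both genes and in 37.4% of all 32851 windows of that length, and GGGCGG occurs in both and in 35.7% of all. The 2 windows overlap, and GGGCGG lies within the printed capitals, so its presence in both is not 2 separate occurrences. Of the 53 windows found for members, 28.3% hold CCAAT and 64.2% hold GGGCGG. Neither window holds TGATAA, found in 9.05% of all windows. AGATAA, in 11.2% of all windows, is also in neither. The same holds for TATAAA, in 13.6%. Windows were found for 48 of the 65 genes.

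Basement membrane genes held most of the reads of the 65 genes. Summed over the class, basement membrane genes had 4483 and 3412 CPM in the controls and 4778 and 3470 CPM in the knockdown libraries. Fibrillar collagens summed to 56.2 and 44.4 CPM in the controls and 44.5 and 37.3 CPM after knockdown. Per kilobase of transcript, the highest means over the 4 libraries were those of Sparc, 164 CPM per kilobase, Fn1 (103), Lamc1 (102), Nid2 (86.8), Serpinh1 (74.0), Col4a1 (72.2), Col18a1 (63.2) and Lama1 (40.9). The highest of the fibrillar collagens was Col5a1 at 2.95 CPM per kilobase, and Col3a1, a main collagen of soft connective tissue, had no read.

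**Figure D1:**
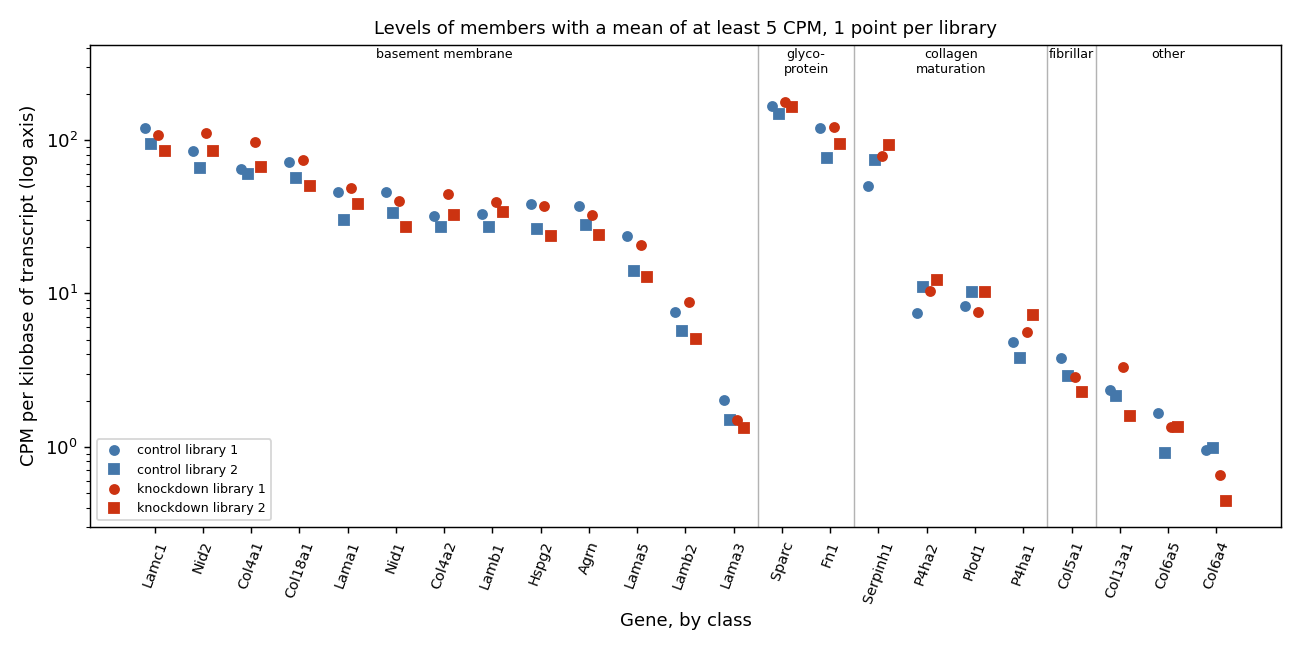
Level of each gene with a mean of at least 5 CPM, as CPM per kilobase of transcript on a log axis, with 1 point per library (blue control, red knockdown, circles library 1, squares library 2) and genes grouped by class. Basement membrane genes mostly lie far above Col5a1, the only fibrillar collagen at this level, and in all 13 basement membrane genes shown the circle lies above the square of the same colour.

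No gene of the 65 passed the test between knockdown and control at an adjusted p under 0.05 over all 13199 tested genes, where 0.0833% of genes did. DESeq2, which gave 26 of them an adjusted p, and limma-voom also called none, where they called 1.34% and 0.0227% of all genes. At an unadjusted p under 0.05 edgeR had 6 of the 44 tested genes higher and 2 lower, beside 6.18% and 5.43% of all tested genes (11.6% in either direction). The 2 groups were apart, with no overlap, in 13 of the 44, beside 43.5% of all tested genes. The log2 fold change was above 0 in 22 of the 44 and below 0 in 22, with a median of 0.027, and that of all tested genes was -0.0016. The lowest adjusted p, 0.20, was that of Col5a2.

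The basement membrane and fibrillar classes had medians closer together than the spread between libraries. The 19 tested basement membrane genes had a median log2 fold change of -0.033, with 8 above 0 and 11 below, and a range from -0.54 to 0.73. The 7 tested fibrillar collagens had a median of -0.17, with 3 above 0 and 4 below, and a range from -1.12 to 1.80. The medians differed by 0.14, less than the spread of 0.32 (SD) that this difference showed between libraries of 1 group. When transcript length and GC content entered the fit as an offset, the medians were 0.12 and 0.061. Without control library 2 the difference of medians was -0.20.

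**Figure D2:**
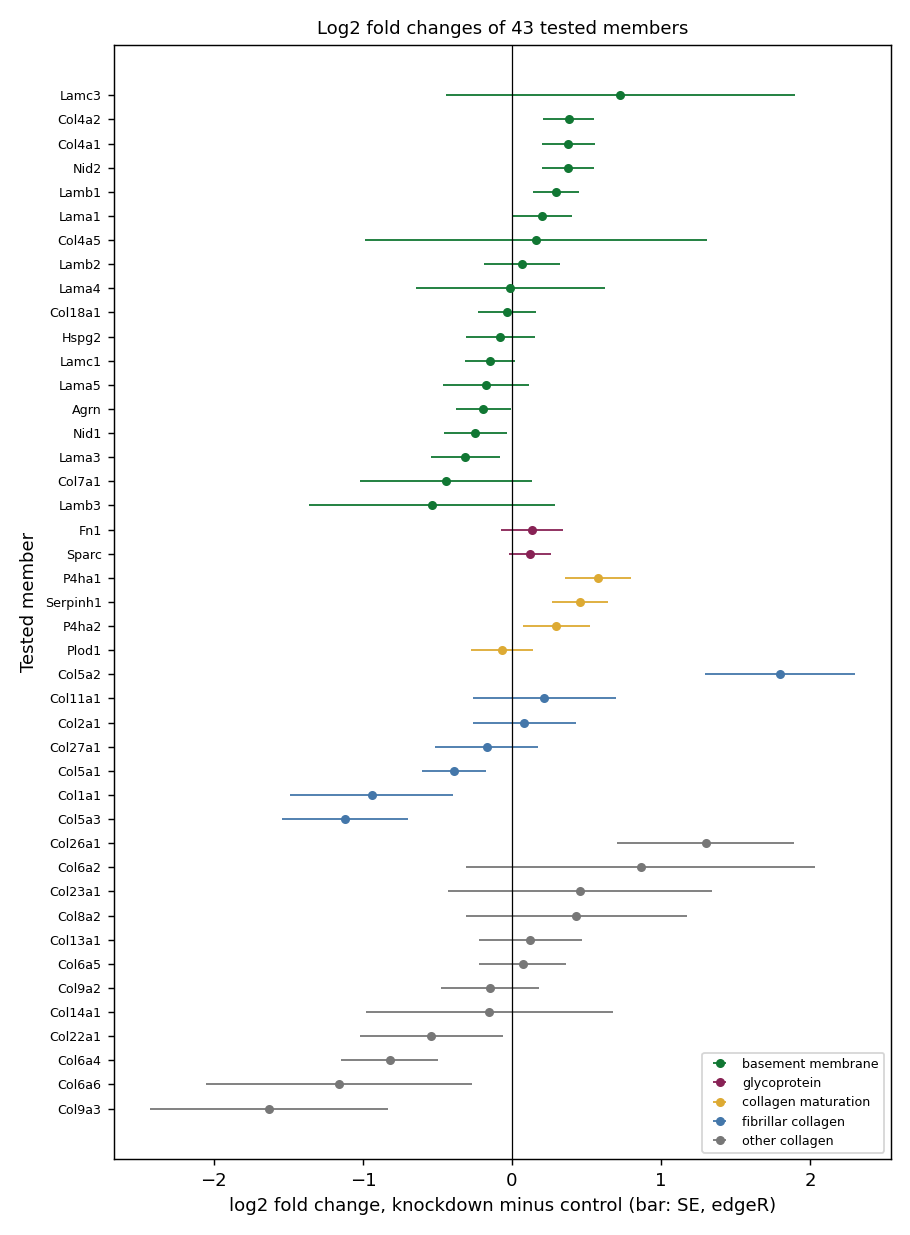
Log2 fold change, knockdown minus control, of 43 of the 44 tested genes, with the edgeR standard error as the bar and colour for the class. Basement membrane genes of good depth sit between -0.31 and 0.38, and the widest values, Col5a2 at 1.80 and Col9a3 at -1.63, belong to collagens with few reads.

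Within each group, the abundant basement membrane genes were higher in the library numbered 1. In 14 of 14 basement membrane genes with a mean of at least 5 CPM, control library 1 lay above control library 2, and in 14 of 14 knockdown library 1 lay above knockdown library 2. Over all tested genes these shares were 48.5% and 49.4%. Of the 4 collagen maturation genes, by contrast, 1 was higher in control library 1 than in control library 2 and 0 in knockdown library 1 than in knockdown library 2. The median transcript length was 6532.5 bases for the 14 genes, 2758.5 for the 4 maturation genes and 3128 for all tested genes. No share for genes of like length is given, and a part of length in this pattern was not tested. What the libraries numbered 1 have in common is not given in the labels.

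Among the collagen IV chains, Col4a1, which encodes the α1 chain, had 430 and 400 CPM in the controls and 640 and 439 CPM in the knockdown libraries. The knockdown libraries were both above the controls, knockdown library 2 by a small margin and knockdown library 1 by a wide one. On the log2 scale the difference was 0.38 ± 0.18 (SE; edgeR adjusted p = 0.43). Its partner Col4a2, the α2 chain gene, had 208 and 175 CPM in the controls and 289 and 210 CPM after knockdown, again with no overlap but with control library 1 and knockdown library 2 almost level. Its log2 fold change was 0.38 ± 0.17 (adjusted p = 0.42). Without knockdown library 1 the 2 log2 fold changes were 0.07 and 0.13. The chains of the tissue-restricted collagen IV trimers were near absent: Col4a3 had no read, Col4a4 and Col4a6 had at most 3 reads in a library, and Col4a5 had 0, 15, 6 and 14 reads in control 1, control 2, knockdown 1 and knockdown 2.

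The ratio of Col4a1 to Col4a2 per kilobase was 2.02 and 2.22 for the control libraries, against 2.16 and 2.03 for the knockdown libraries. These ratios overlapped, in the pair of genes with the adjoining starts. In the protein, the common collagen IV trimer likewise holds more α1 than α2 chains.

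Lama1, Lamb1 and Lamc1 encode the laminin chains of the early embryonic trimer. Lama1, the α1 chain gene, had 437 and 287 CPM in the controls and 466 and 366 CPM after knockdown, so that the groups overlapped (log2 fold change 0.20 ± 0.20, SE; edgeR adjusted p = 0.74). Lamb1, the β1 chain gene, had 191 and 156 CPM in the controls and 229 and 198 CPM after knockdown. Its groups did not overlap, although control library 1 and knockdown library 2 were close together, and the log2 fold change was 0.30 ± 0.15 (adjusted p = 0.49), or 0.16 without control library 2, 0.18 without knockdown library 1 and 0.45 without control library 1. Lamc1, the γ1 chain gene shared by most laminins, had 912 and 718 CPM in the controls and 827 and 644 CPM after knockdown. These groups overlapped, and the log2 fold change was -0.15 ± 0.17 (adjusted p = 0.78).

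Lama5, the α5 chain gene of later epithelial laminins, had 270 and 160 CPM in the controls and 235 and 146 CPM after knockdown (log2 fold change -0.17 ± 0.29, SE; edgeR adjusted p = 0.87). Library 1 was the higher of each group, and the groups overlapped. The chain genes Lama3 and Lamb2, of other laminins, had group means from 14.9 to 39.0 CPM and log2 fold changes of -0.31 and 0.06. Lama4, Lamb3 and Lamc3 had at most 25 reads in any library, and Lama2, the α2 chain gene of muscle laminin, at most 2. Over the 10 tested laminin genes the median log2 fold change was -0.05, with 4 above 0. None had an unadjusted edgeR p under 0.05, beside 11.6% of all tested genes.

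Nidogens, which bridge laminin and collagen IV, had log2 fold changes of opposite sign. Nid2 had 417 and 320 CPM in the controls and 541 and 416 CPM after knockdown, so that control library 1 and knockdown library 2 were level. That gave 0.38 ± 0.17 (log2 fold change, SE; edgeR adjusted p = 0.43), with 0.17 when knockdown library 1 was left out, 0.20 without control library 2 and 0.58 without control library 1. Nid1 had 281 and 202 CPM in the controls and 244 and 164 CPM after knockdown, a log2 fold change of -0.24 ± 0.21 (adjusted p = 0.69) with overlapping groups.

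The proteoglycans overlapped between groups. Hspg2, the perlecan gene, had 540 and 375 CPM in the controls and 528 and 338 CPM after knockdown (log2 fold change -0.08 ± 0.23, SE; edgeR adjusted p = 0.93). Agrn had 269 and 201 CPM in the controls and 237 and 175 CPM after knockdown (-0.19 ± 0.18, adjusted p = 0.73). Col18a1, whose product carries heparan sulfate and releases endostatin, had 401 and 315 CPM in the controls and 417 and 283 CPM after knockdown (-0.03 ± 0.19, adjusted p = 0.97). In each of these genes library 1 exceeded library 2 within a group by more than the group means differed.

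Ratios between chains within a library do not depend on how libraries are scaled, so 9 ratios per kilobase were compared, chosen after the members' values had been seen. Genes above 0 were mostly put over genes below 0, so the direction of these ratios and how many of them did not overlap follow in part from that choice and are a description only. Nid2 over Nid1 stood at 1.85 and 1.97 in control libraries 1 and 2 against 2.77 and 3.17 in knockdown libraries 1 and 2, a 1.55-fold difference. In the same order, Lamb1 over Lamc1 was 0.276 and 0.287 against 0.364 and 0.404, and Lama1 over Lamc1 was 0.384 and 0.320 against 0.451 and 0.455. Thus within each knockdown library there was more Lama1 and Lamb1 RNA for the Lamc1 RNA than in either control.

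Lama1 over Lama5 was 1.94 and 2.14 in control libraries against 2.37 and 2.99 in knockdown libraries. Lama1 over Lama3 was 22.6 and 20.3 against 32.7 and 28.9, and Col4a1 over Lamc1 was 0.544 and 0.642 against 0.892 and 0.786. The ratios of Col4a1 to Col4a2, Lamb1 to Lamb2 and Hspg2 to Agrn overlapped. No test is given for ratios chosen in this way. Ratios with a gene in common are not independent of each other.

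**Figure D3:**
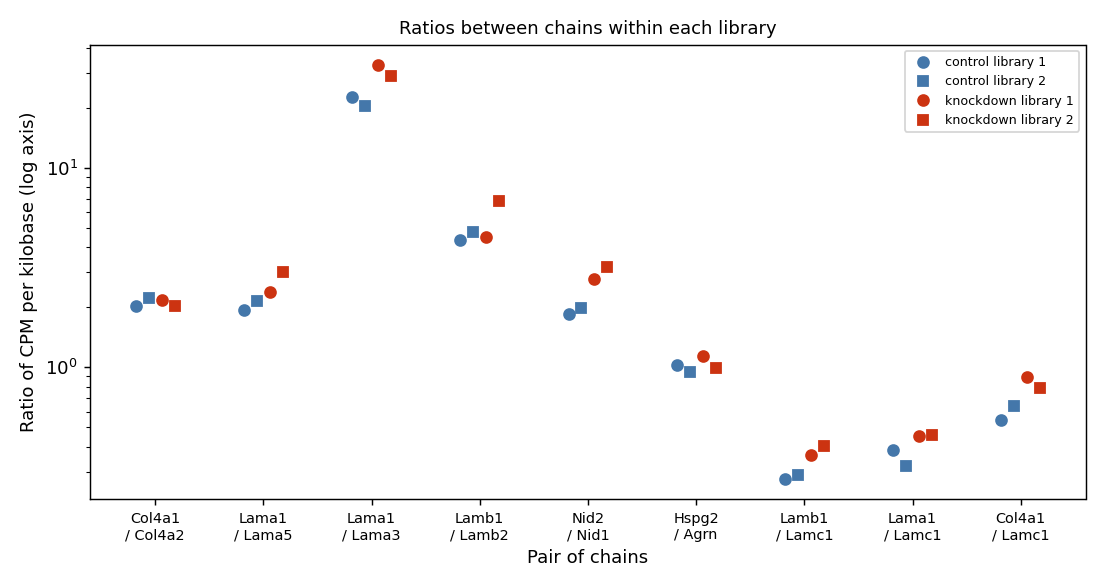
Ratio of CPM per kilobase between pairs of chains in each library, on a log axis, with control libraries in blue and knockdown libraries in red. The pairs were chosen after their values were seen. For Nid2 over Nid1 both red points lie above both blue points, whereas for Col4a1 over Col4a2 the points of both groups lie between 2.02 and 2.22.

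Median log2 fold changes over all tested genes fell with transcript length. When the tested genes were ranked by length and cut into 5 groups of equal size, their median log2 fold change ran from 0.13 in the shortest to -0.14 in the longest, transcripts of 5107 bases or more. Of the 19 tested basement membrane genes 17 fell in that longest group, in which 33.5% of genes had a log2 fold change above 0. In the fit with the length and GC offset, 15 of the 19 were above 0, beside 49% of all genes in the longest group. There 5 basement membrane genes had an unadjusted p under 0.05, all higher, where 6.86% of all tested genes did. These were Col4a1 (log2 fold change 0.57 ± 0.15, SE), Col4a2 (0.56 ± 0.15), Nid2 (0.52 ± 0.17), Lamb1 (0.46 ± 0.13) and Lama1 (0.45 ± 0.16). Their edgeR adjusted p values ran from 0.17 to 0.31, so none was called, where this fit called 0.159% of all genes. Lamc1 had 0.06 ± 0.14 in that fit, and Nid1 -0.10 ± 0.19. Whether the length trend comes from the RNA, the libraries or the cells was not tested.

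**Figure D4:**
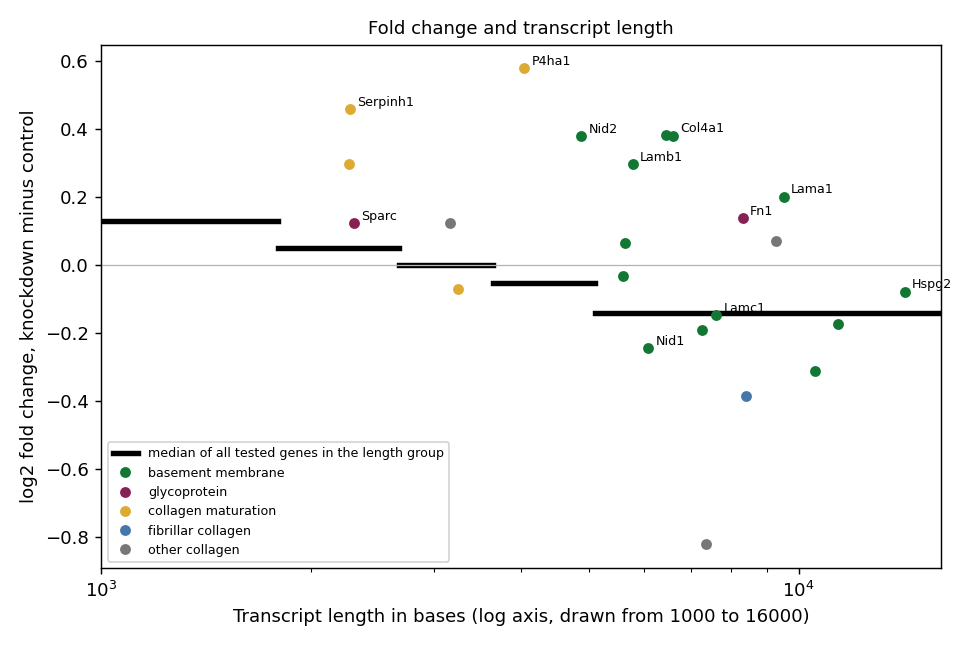
Log2 fold change, knockdown minus control, against transcript length on a log axis for the genes with a mean of at least 5 CPM (points, coloured by class), with the median of all tested genes in each of 5 length groups as black lines. The black lines step down from 0.13 to -0.14 with length, and Col4a1, Nid2, Lamb1 and Lama1 lie above the line of their own length, whereas Lamc1 lies on it.

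The matrix glycoprotein genes overlapped between the groups. Sparc, which encodes a secreted collagen-binding glycoprotein abundant in parietal endoderm, had 383 and 340 CPM in the controls and 408 and 379 CPM after knockdown (log2 fold change 0.12 ± 0.14, SE; edgeR adjusted p = 0.78). Fn1, which encodes fibronectin, had 998 and 640 CPM in the controls and 1017 and 785 CPM after knockdown (0.14 ± 0.21, adjusted p = 0.85).

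Collagen maturation genes had the highest median of the classes, 0.38 over 4 genes, with 3 above 0. Serpinh1, the collagen chaperone gene, had 114 and 170 CPM in the controls and 178 and 211 CPM after knockdown. The groups did not overlap, with control library 2 and knockdown library 1 close together, and the difference was 0.46 ± 0.19 on the log2 scale (SE; edgeR adjusted p = 0.37). P4ha1, a catalytic subunit gene of prolyl hydroxylase, had 19.6 and 15.4 CPM in the controls and 22.8 and 29.4 CPM after knockdown, without overlap (0.58 ± 0.22, adjusted p = 0.34). Without control library 1, Serpinh1 had a log2 fold change of 0.20.

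The second prolyl hydroxylase subunit gene, P4ha2, had 16.97 and 24.7 CPM in the controls and 23.5 and 27.8 CPM after knockdown, and these overlapped (0.30 ± 0.22, SE; edgeR adjusted p = 0.64). Plod1, a lysyl hydroxylase gene, had 27.0 and 33.3 CPM in the controls and 24.4 and 33.1 CPM after knockdown (-0.07 ± 0.21, adjusted p = 0.94). In contrast to the laminins, these genes were mostly higher in the second library of each group.

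The fibrillar collagens were few in reads and split. Col5a2, the α2 chain gene of collagen V, a minor fibrillar collagen that starts fibril assembly, had 24 and 12 reads in the controls against 88 and 71 reads after knockdown. These made 1.46 and 0.636 CPM in the controls and 3.94 and 3.30 CPM after knockdown, with both knockdown libraries well above both controls. The difference was 1.80 ± 0.51 on the log2 scale (SE; edgeR adjusted p = 0.20). With no filter on low counts its adjusted p was 0.029, and over the alternative fits it ranged from 0.0041 to 0.37 with a log2 fold change of 1.31 to 2.499. The neighbouring gene Col3a1 had no read in any library.

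The other collagen V chains lay on the other side. Col5a3, the α3 chain gene, had 9.31 and 4.18 CPM in the controls and 3.81 and 2.37 CPM after knockdown, a log2 fold change of -1.12 ± 0.42 (SE; edgeR adjusted p = 0.34). The highest value, that of control library 1, stood apart from the other three, and without that library the log2 fold change was -0.44. Col5a1, the α1 chain gene, had 32.0 and 24.2 CPM in the controls and 23.9 and 19.0 CPM after knockdown (-0.39 ± 0.21, adjusted p = 0.51), with control library 2 and knockdown library 1 almost level. The groups of both genes did not overlap.

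The collagen I genes, typical of fibroblasts and bone, were at the edge of detection. Col1a1 had 41 and 38 reads in the controls and 18 and 33 after knockdown, or 2.49 and 2.01 CPM against 0.806 and 1.53 CPM (log2 fold change -0.94 ± 0.55, SE; edgeR adjusted p = 0.53). Col1a2 had at most 11 reads in a library and was not tested. The cartilage collagen gene Col2a1, with 3.90 to 5.69 CPM, Col11a1 and Col27a1 had log2 fold changes of 0.08, 0.22 and -0.17.

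Among the other collagens, 12 of 24 were tested, and their median log2 fold change was -0.04. Col26a1, a collagen-like gene of reproductive tissue, had 0.487 and 1.32 CPM in the controls and 1.97 and 2.55 CPM after knockdown (1.30 ± 0.59, SE; edgeR adjusted p = 0.43), with no overlap. Col6a4, a collagen VI family gene, had 7.06 and 7.26 CPM in the controls and 4.84 and 3.25 CPM after knockdown (-0.82 ± 0.33, adjusted p = 0.36). Its controls were nearly equal and both knockdown libraries lay below them. Col9a3, a cartilage collagen IX gene, had 17, 39, 19 and 3 reads in control 1, control 2, knockdown 1 and knockdown 2 (-1.63 ± 0.80, adjusted p = 0.45), and Col6a6 had 29, 15, 23 and 2 (-1.16 ± 0.89, adjusted p = 0.65). Col6a2 and Lamc3, which were among the largest positive values at 0.86 and 0.73, each had no read in control 1 and at most 17 in any library. The collagen VI genes Col6a1 and Col6a3 had at most 10 reads in a library and were not tested.

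The 21 untested genes had at most 16 reads in any library, and 39 over the 4 together. Besides those named above they included Col11a2 and Col24a1 among the fibrillar collagens, Col15a1 of the basement membrane class, and Col8a1, Col9a1, Col12a1, Col16a1, Col17a1, Col19a1, Col20a1 and Col25a1 among the others. Col10a1 and Col28a1 had no read.

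The genes around the matrix, taken from fixed lists, gave no call in edgeR. Of 22 matrix receptors 20 were tested, with a median log2 fold change of -0.02. At an unadjusted edgeR p under 0.05, 2 were higher and 2 lower, beside 6.18% and 5.43% of all tested genes. Sdc4, a heparan sulfate proteoglycan receptor gene, had 80.9 and 65.7 CPM in the controls and 106 and 133 CPM after knockdown (0.71 ± 0.17, SE; edgeR adjusted p = 0.14). Itga9, an integrin α chain gene, had 65.1 and 54.8 CPM in the controls and 37.8 and 20.2 CPM after knockdown (-1.05 ± 0.26, adjusted p = 0.18). DESeq2 called both (adjusted p of 0.029 for Sdc4 and 0.013 for Itga9), 2 of 15 receptors to which it gave an adjusted p, where it called 1.34% of all such genes.

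Of the collagen processing and crosslinking genes 21 were tested, with a median of 0.08. At an unadjusted p under 0.05, 1 was higher, Plod3, a lysyl hydroxylase and glycosyltransferase gene (log2 fold change 0.34 ± 0.16, SE; edgeR adjusted p = 0.42), and 2 were lower. Over all tested genes 6.18% were higher and 5.43% lower at that threshold. Tgm2, the tissue transglutaminase gene, had 17.2 and 20.02 CPM in the controls and 10.2 and 8.22 CPM after knockdown (-1.02 ± 0.24, edgeR adjusted p = 0.14), and DESeq2 called it (adjusted p = 0.029). The 14 tested genes of further basement membrane proteins had a median of -0.07, with Smoc1 at 0.40 ± 0.16 and Vwa1 at -0.82 ± 0.32. Among 12 tested matrix proteases and their inhibitors the median was -0.18, with the inhibitor gene Timp1 at 0.64 ± 0.18 and Timp2 at -0.93 ± 0.35. Of the 4 lists together, edgeR called none over all genes.

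Markers of primitive and parietal endoderm lay mostly above 0 in the main fit, whereas 11 of the 19 tested basement membrane genes lay below 0. The markers are shorter, with a median transcript length of 3349.5 bases against 6450, and a part of length in this difference was not tested. In the fit with the length and GC offset, 13 of the 14 markers and 15 of the 19 basement membrane genes were above 0. Without the offset, 12 of the 14 markers were above 0 in log2 fold change, with a median of 0.72. In 9 markers the knockdown libraries both exceeded the controls, as in 22.3% of all tested genes. Their summed level was 281 and 228 CPM in the controls and 363 and 335 CPM after knockdown, and none of the 14 was at 0 in either control. Pdgfra, a receptor gene of primitive endoderm, had 18.2 and 20.4 CPM in the controls and 32.0 and 50.9 CPM after knockdown (1.10 ± 0.23, SE; edgeR adjusted p = 0.093). Gata4, Gata6 and Sox17, transcription factor genes of that lineage, had values of 0.94, 0.79 and 0.85, and none of the list was called by edgeR. DESeq2 called Pdgfra, Gata4 and Foxq1, all higher, of the 12 to which it gave an adjusted p, where it called 1.34% of all such genes. Their part in the collagen IV and laminin values was not tested, and in bulk RNA more cells of a type and more RNA per cell cannot be told apart. The order of the 2 knockdown libraries was mixed among the markers. Pdgfra, Gata4 and Gata6 were higher in knockdown library 2, and Amn, Sox7 and Lrp2 in knockdown library 1. Endothelial markers, another source of collagen IV, had a median of -0.25 over 5 tested genes and a summed level of 63.6 to 93.6 CPM in the controls and 64.3 to 73.8 CPM after knockdown. Most of that sum was Pecam1, with 58.6 and 45.3 CPM in the controls and 45.2 and 42.5 CPM after knockdown. Emcn had no read in any library.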

How the data were processed

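Each deposited file gives unnormalized read counts by gene symbol for 1 library; the values are whole and the totals differ. Per the submitters' processing notes, TopHat, HTSeq, SAMtools and bedtools were used with build mm9. The sources used here give no versions, annotation or strand setting. Tallies naming no gene were left out. Of these, reads without a unique alignment made up 32.8% and 30.2% of all tallied reads in the controls and 28.7% and 26.1% after knockdown. The gene Rn45s held 17.5% and 15.9% of gene counts in the controls and 12.3% and 11.0% after knockdown. A part of these differences in the fold changes was not tested, apart from the fit without Rn45s and Lars2 below.

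Genes that passed filterByExpr (minimum count 10) were compared by edgeR 4.0.16 under R 4.3.3, using TMM factors, robust glmQLFit and glmQLFTest with group as the only term (two-sided, Benjamini-Hochberg over all 13199 genes, threshold 0.05). Standard errors were derived from the F statistic (size of the log2 value divided by the root of F). The fit was tested on simulated data with 4-fold changes, so that test says nothing about differences as small as most of those here. The biological coefficient of variation was 17.4%. Alternatives were DESeq2 1.42.0, limma-voom (limma 3.58.1), other factors and filters, a replicate block, a length and GC offset (splines with 4 degrees of freedom) and leaving out each library. The submitters call the libraries biological replicates without saying how cultures were separated, so the p-values reflect only the spread of these libraries, which may be technical. Lengths and GC content are of the longest coding transcript in GENCODE M21 (GRCm38), found for 98.4% of symbols, and no coordinates were taken from it.

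Named genes followed a rule: main matrix genes, those with an unadjusted p under 0.05, the 5 largest changes each way, the 8 highest per kilobase and up to 4 per further list. Laminin, collagen and marker genes outside it were named after their values were seen. The members, lists and tests were chosen with earlier results of these data known. The values of 1 gene are not reported here, and it was left out of the figures and ratios.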

Additional observations from a re-analysis of the deposited data

How the results depend on the processing

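No gene of the 65 was called by edgeR with relative log expression or upper-quartile factors, library size only, the filter of 1 CPM in 2 libraries, no robust estimation, the length and GC offset, or without Rn45s and Lars2, nor by DESeq2 or limma-voom. Leaving out each library in turn, on the genes of the full comparison, gave 0 higher and 0 lower each time. There 1 group is a single library, assumed to vary like the other group, and without either control no gene at all was called, so these counts say nothing about stability. With no filter on low counts 1 of 61 was higher, Col5a2, where 1.95% of all genes were called. Equal replicate numbers are not said to mark a shared culture. Deviations from the group mean correlated between the libraries numbered 1 at 0.244 over all tested genes and at 0.607 over the 44 (across genes, which are not independent). With a replicate block 4 were higher (Nid2, Serpinh1, P4ha1 and Col5a2) and 1 lower (Col5a3), where 7.24% of all genes were called. With the replicate block and the length and GC offset 7 were higher (Col4a1, Col4a2, Lama1, Lamb1, Nid2, Serpinh1 and Col5a2), where 5.33% of all genes were called.

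The basement membrane median ranged from -0.35 to 0.13 over left-out libraries, the fibrillar median from -0.22 to 0.0026, and their difference from -0.20 to 0.31. The fibrillar median, which rests on 7 genes of few reads, was -0.19 with upper-quartile factors, -0.12 with library size only, -0.43 with no filter, -0.39 for members of at least 5 CPM (Col5a1 alone), 0.061 with the length and GC offset and 0.067 with the replicate block added to it. The cause of these shifts was not tested.

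Signs changed in these genes, among them Lama1, which the replicate block with the offset called. With library size only Col18a1 was 0.017. With the length and GC offset, then with the replicate block added, log2 fold changes were 0.097 and 0.12 for Lama5, 0.059 and 0.061 for Lamc1, 0.22 and 0.23 for Hspg2, 0.018 and 0.027 for Agrn, 0.022 and 0.011 for Plod1, and 0.12 and 0.12 for Col18a1. Over left-out libraries they ranged from -0.44 to 0.032 for Agrn, -0.35 to 0.22 for Col18a1, -0.45 to 0.21 for Hspg2, -0.56 to 0.25 for Lama5, -0.35 to 0.035 for Lamc1, -0.57 to 0.016 for Nid1, -0.072 to 0.54 for Lama1, -0.15 to 0.49 for Fn1, -0.30 to 0.13 for Plod1, -0.29 to 1.49 for Col6a2 and -0.29 to 1.31 for Lamc3. For the last pair no value was possible without control library 2, since the remaining control had no read.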
